A study of Mus musculus with 4 samples.

Results

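Mouse embryonic stem (ES) cells labelled null for Sall4 were compared with heterozygous cells grown in the same way, on gelatin without feeder cells, across all genes of an expression array. The comparison used 2 of the 4 arrays of the series, 1 per genotype, chosen by their titles. Both cultures were E14.1 cells. The heterozygous line, HET18, carried Sall4 alleles flox and -, and the line labelled null, KO1, carried delta and -. Both carried a blasticidin-resistance gene joined through an IRES to Oct3/4 by targeting, and both were kept with LIF and blasticidin, which selects for cells that express Oct3/4. The other 2 arrays held the same genotypes grown on blasticidin-resistant fibroblast feeders, and serve here as a second pair. Each genotype was 1 line and each group 1 array. Genotype, line and culture therefore cannot be told apart, and every value below is a description without a test.

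SALL4 is a zinc finger transcription factor of the early embryo and of ES cells. It works with the Oct3/4, SOX2 and NANOG network, and recruits the NuRD corepressor. Blastocysts need it for growth of the inner cell mass, and it has been linked to the choice between embryonic and trophectoderm fate. Without feeders, ES cells depend on added LIF and on serum factors, and some spread or differentiate.

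Signals were linear MAS5 intensities of 45101 probe sets. Differences are given as labelled null minus heterozygous on a log2(signal + 4.6) scale, where 4.6 is the 25th percentile of all signals, and folds carry the same offset, which draws folds of weak signals towards 1. Each of 18193 genes was read by its brightest probe set. A gene was counted when the brighter array of the pair was above 17.1, the median of all signals, which left 11304 genes. In 10174 of these both arrays were above 17.1, and in 1130 only one was, so that those genes had to differ to some extent. The 2 arrays had median signals of 16.1 and 17, and the median log2 difference of the counted genes was 0.00 (SD across genes 0.56). Genes that every ES cell should express were bright on both arrays. Signals are given below in pairs, with the heterozygous array first and the one labelled null second. Nanog read 1745 and 1232, Sox2 2661 and 2147, Zfp42 2955 and 2432, and Dppa5a 6337 and 6312.

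At least a 2-fold difference was found for 894 counted genes (7.91%), 503 higher (4.45%) and 391 lower (3.46%) on the array labelled null. Most counted genes differed little: 74.2% lay within 0.5 on the log2 scale. With the offset at the median signal, 289 were higher and 180 lower. The share past 2-fold varied with signal, from 15.2% of 3255 genes with a mean signal under 50 to 1.56% of 898 genes above 1000. Just inside and outside the limit, 4930413G21Rik read 9.8 and 24.2 (log2 difference 1.00) and Pmepa1 78.4 and 161 (log2 difference 0.998). Many genes have a second probe set, which reads another stretch of the transcript in the same RNA. Of 204 higher genes with a second probe set above 17.1, 201 had the same sign there and 132 were again at least 2-fold higher. For the lower genes, 80 of 85 had the same sign and 39 were again at least 2-fold lower.

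**Figure D1:**
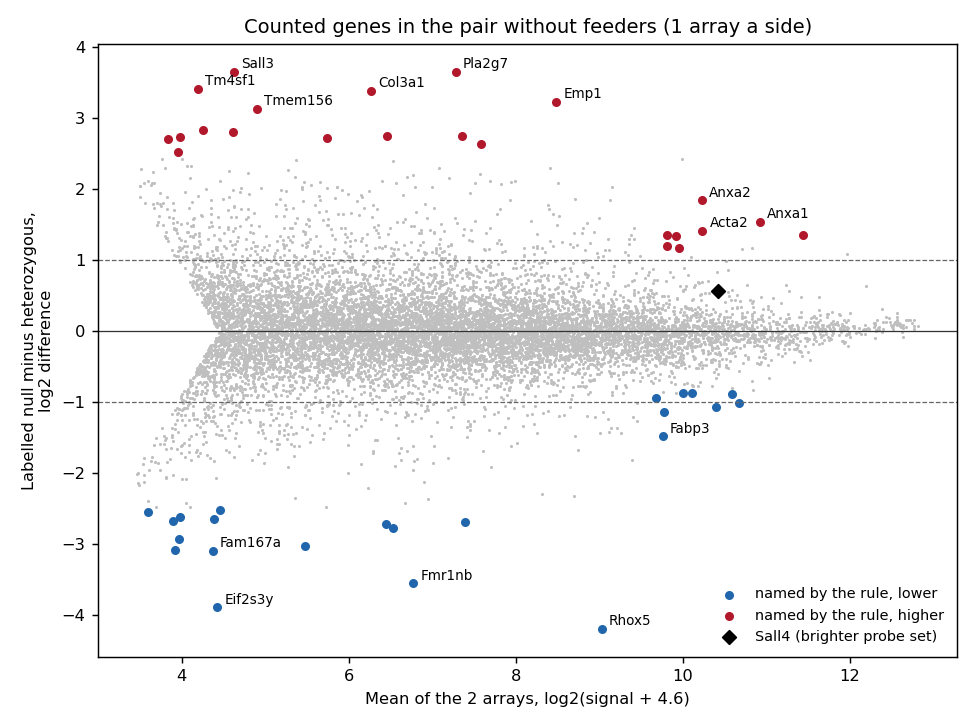
Labelled null minus heterozygous log2 difference (y axis) against the mean log2(signal + 4.6) of the 2 arrays (x axis) for 11304 counted genes without feeders; dashed lines mark 2-fold. Blue and red points are the lowest and highest genes overall and among those above 500 on both arrays, and the diamond is the brighter Sall4 probe set at 0.57.

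Sall4 itself was not lower on the array labelled null. Its brighter probe set read 1126 and then 1670.5, a difference of 0.57, and the other probe set read 147 and 381 (log2 difference 1.34). The labels do not say which part of the gene the delta allele lacks or where the probe sets lie, so these signals may or may not bear on the deletion, and the direction of every difference below rests on the labels. Pou5f1, the gene of Oct3/4 that the drug selection acts on, read 1284 and 977. Among the relatives of Sall4, Sall3 was among the highest of all counted genes, from 2.4 to 83.2 (log2 difference 3.65, and 2.36 with the offset at the median signal), and its second probe set went from 1.5 to 22.8. Sall1 read 497 and 448, and Sall2 59.9 and 43.0. So 1 of 4 family members was past 2-fold, and the list median was 0.21.

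The lowest gene was Rhox5, a homeobox gene of the X-linked reproductive cluster, at 2229 and 118 (18.3-fold lower). Eif2s3y, a Y-linked subunit of a translation initiation factor, read 78.2 and 1.0. Fmr1nb, a cancer/testis gene, read 369 and 27.4. These 3 were more than 10-fold lower. Next came Fam167a (56.0 and 2.5) and Myom2, a sarcomere protein gene (39.4 and 0.6), of whose other probe sets 2 were lower (21.2 and 8.6, 8.7 and 1.4) and 1 was dim on both arrays (1.8 and 2.1). The calmodulin-like gene Calml4 read 122 and 11.0, Gm9564 38.5 and 1.1, and Pnma5 238 and 30.9. Dppa3, which protects maternal methylation in the zygote and marks early germ cells, read 219 and 29.5. AF067061 was 6.44-fold lower, measured by a probe set of the x_at kind, which may cross-hybridise. The last 5 of the 15 lowest were Ceacam20, Rab25, Cpne9, Nrg4 and Rab3il1, with 24.6 to 48.1 on the first array and 0.4 to 4.6 on the second. Rab25 is an epithelial GTPase of membrane recycling and Nrg4 a ligand of ERBB receptors. The low signals of these 5 genes lie far under the median, so the size of each fold depends on the offset.

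The 15 highest genes held Sall3, Pla2g7 and genes of surface and matrix proteins. Their order depended on the offset, since many were far under 17.1 on the heterozygous array. Pla2g7, a secreted phospholipase, read 39.4 and 546. Emp1, an epithelial membrane protein gene, read 113 and 1092, and the surface protein gene Tm4sf1 1.0 and 55.1. Tmem156 read 5.5 and 83.6, with a log2 difference from 2.16 to 3.70 over the offsets tried. The matrix and adhesion genes included Col3a1, which read 19.2 and 244. Tnc, which encodes tenascin C, read 29.3 and 224, and Tgfbi, a TGF-beta induced adhesion protein gene, 58.6 and 420.4. Col1a1 read 1.5 and 36.0, Ccdc80 16.3 and 133, and Crispld2 2.6 and 46.5. All 4 probe sets of Tgfbi were at least 2-fold higher, by 1.79 to 2.75 on the log2 scale. The set also held a pair of secreted regulators. Rspo3, an enhancer of Wnt signals, read 4.7 and 60.1, and Grem1, a BMP antagonist, 1.0 and 31.9. Bmp2k, a kinase gene, read 72.8 and 475, and Samd5 1.9 and 32.6.

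**Figure D2:**
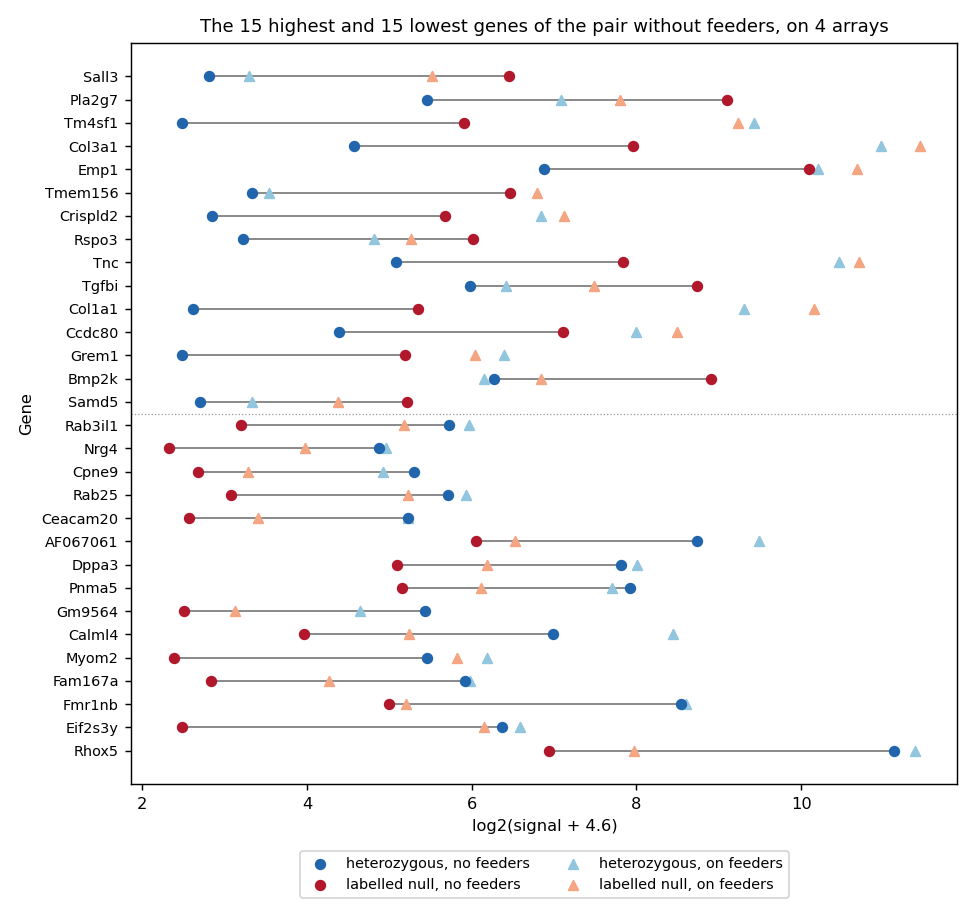
Log2(signal + 4.6) of the 15 highest and 15 lowest genes of the pair without feeders on each of 4 arrays (1 point per array; circles without feeders, triangles on feeders; the line joins the pair without feeders). Col3a1, Tnc and Col1a1 sit highest on the 2 arrays with feeders, whereas Sall3, Pla2g7, Tgfbi and Bmp2k sit highest on the array labelled null without feeders.

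Among 1748 genes above 500 on both arrays, where folds depend little on the offset, 12 were at least 2-fold higher and 4 lower. Anxa2 and Anxa1, calcium-dependent membrane proteins, read 629.6 and 2269, and 1135 and 3303. Vim, the intermediate filament protein of mesenchymal cells, read 1730.3 and 4448, and its 2 other bright probe sets differed by 0.98 and 1.18. The smooth muscle actin gene Acta2 read 733 and 1958 by an s_at probe set, while its 2 other probe sets were dim, at 10.5 and 2.5 and at 5.4 and 4.4, so the direction rests on the former. Itm2a, a membrane protein gene, read 560.0 and 1437, Ccn2, a matricellular target of YAP, 606 and 1539, Lpp, a focal adhesion gene, 588 and 1353, and Tagln, an actin-binding protein gene, 657 and 1492. On the lower side stood Fabp3, a fatty acid carrier (1445 and 515), Mreg, a vesicle transport gene (1298 and 585), Hmgcs1 of sterol synthesis (1945 and 927) and Ifitm1, an interferon-induced membrane protein gene (2315 and 1149). Utf1, Upp1, Cdh1 and Apoe followed, 1.93-fold to 1.83-fold lower. With the mean of each gene's probe sets, those under 2-fold included Anxa2 (0.61), Anxa1 (0.59), Acta2, Fabp3 (-0.60) and Hmgcs1 (-0.89).

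Gene lists were then read by counting members past 2-fold, against 4.45% higher and 3.46% lower among all counted genes, and by the median of all measured members, against 0.00 for all 18193 genes. The naive pluripotency list held genes that sustain or mark undifferentiated ES cells. Of its 29 members, 3 were past 2-fold lower and 0 higher, and the median was -0.39. The members past 2-fold were Dppa3, Fgf4, the growth factor that primes ES cells (400.5 and 103), and Tcl1, an Akt cofactor (284 and 131). In all, 25 of the 29 lay below 0. The others named by rule were within 2-fold: Zfp296 (303 and 170.3), the nuclear receptor gene Esrrb (595 and 347), the F-box gene Fbxo15 (2625 and 1668), the TGF-beta family gene Gdf3 (613 and 403) and Utf1, a chromatin protein of ES cells. The 4 members above 0 were Klf5 (0.40), Klf4 (0.32), Nr5a2 (0.19) and Trim28 (0.04). All 29 passed the signal limit on both arrays.

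Genes of the primed epiblast, the state that follows the naive one, had a median of -0.83 over 15 members (-0.32 with every probe set), and 4 of 14 counted members were past 2-fold lower. Otx2, a homeobox gene of the epiblast and forebrain, read 211 and 51.0. Pou3f1, which encodes Oct6, read 426 and 136. Car4, a carbonic anhydrase gene, read 172 and 49.2, and the de novo methyltransferase gene Dnmt3a 273 and 105. Higher members were Fst, a follistatin that binds activin (41.5 and 191), and Sox4 (1112 and 2492). For 11 of the 15 members the heterozygous array without feeders was the highest of 4 arrays, a rank not counted over all genes. Pou3f1 read only 45.6 and 54.1 on feeders, for example. Dnmt3a read 72.6 and 87.1 there, also below the heterozygous array without feeders.

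Trophectoderm genes, of the outer layer of the blastocyst, split. Their median was -0.08, with 3 members past 2-fold higher and 4 lower of 24 counted. Cdx2, the homeobox gene that specifies this layer, read 17.1 and 82.2, and its other probe set 2.1 and 29. Plac1, a placental gene on the X chromosome, read 24.1 and 113, and the homeobox gene Msx2 35.3 and 128. Defining factors beside Cdx2 did not share its difference: Eomes read 42.5 and 42.1, and Elf5, under the signal limit, 5.0 and 1.9. Gata3 read 23.7 and 49.2, within 2-fold. The 4 lower members were Rhox9 (283 and 97.6), Rhox6 (362 and 152), the ligand gene Wnt7b (71.4 and 29.8) and Plet1 (51.1 and 22.0). Rhox5, Rhox6 and Rhox9 are consecutive among the counted genes of the X-linked cluster.

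Germ cell genes held 8 members past 2-fold lower and 1 higher of 20 counted, while the median was 0.02 over all 23 and -0.44 over those 20. Beside Rhox5, Fmr1nb and Dppa3, the lower members were Zfp352, a gene of the early embryo (39.1 and 5.8), the meiosis genes Hormad1 (138 and 38.8) and Sycp3 (227 and 95.7), the RNA-binding gene Dazl (73.2 and 33.7) and the RNA helicase gene Mov10l1 (18.3 and 6.8). Stra8, a retinoic acid target at the entry to meiosis, was the higher one (86.6 and 200.4).

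Early neural genes had a median of 0.54 over 23 members, with 8 past 2-fold higher and 0 lower of 16 counted. Irx3, a patterning homeobox gene, read 24.2 and 113, and Zic1, a zinc finger gene of the neural plate, 7.7 and 44.1. Ntn1, the gene of netrin-1, read 32.1 and 112, and En2 of the midbrain 25.5 and 84.2. The other higher members were En1, Ncam1, Pax3 and Sox1, by 1.45 to 1.04 on the log2 scale. The defining neural genes were dim: Sox1 read 20.7 and 47.3, and Pax6 25.8 and 36.5. Nes and Tubb3, general markers of neural cells, had differences of -0.09 and -0.08.

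Many mesenchymal genes were higher in the culture labelled null. In the mesenchymal transition list, factors and targets of the loss of epithelial shape, 7 of 13 counted members were past 2-fold higher and 0 lower, with a median of 0.92 over 15. Beside Tgfbi and Vim, these were Twist2 (1.7 and 26.3), the growth factor gene Tgfb2 (36.1 and 171), Cdh2, which encodes N-cadherin (124 and 456), Zeb2 and Cdh11. The epithelial junction list held 2 of 23 past 2-fold lower and none higher, with a median of -0.18. These were Rab25 and the claudin gene Cldn7 (163 and 76.6). Cdh1, the gene of E-cadherin, read 1384 and 752 (1.84-fold lower), the desmosome gene Dsg2 559 and 286, and Cldn6 238 and 126. The simple keratins Krt8 and Krt18, which are in this list too, had differences of 0.14 and 0.24. In a bulk sample, more cells of one type cannot be told apart from more RNA per cell.

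Fibroblast markers, genes of the feeder cell type, were higher too. Of 32 counted markers, 17 were past 2-fold higher and 0 lower, the median over all 39 was 1.10, and the signals of all 39 summed to 3339 and 5399.6. On feeders the sums were 27215 and 34448. Without the genes at least 2-fold brighter on feeders in heterozygous cells, a choice that reads the same low array, 261 genes were higher. Of the markers, only Twist1, Sfrp1 and Nid2 were then left, so the list median of -0.15 was the value of Sfrp1 alone. Only 17 of the 39 were above 17.1 on both arrays without feeders. S100a4 read 2.3 and 32.5, the collagen gene Col5a2 44.3 and 215, the receptor gene Pdgfrb 10.7 and 57.5, and the proteoglycan gene Lum 1.3 and 17.3. Other defining markers did not differ so: Col1a2 read 38.4 and 36.2, Thy1 20.8 and 15.7, and Dcn 18.4 and 23.6.

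The markers also differed in how near they came to their level on feeders. For 32 markers at least 4-fold brighter on the heterozygous feeder array and above 100 there, the array labelled null without feeders reached 1.13% to 45% of that level (median 5.9%), and the heterozygous array without feeders 0.123% to 22.5% (median 2.41%). That choice itself keeps the heterozygous share low, so the shares of the 2 arrays are given side by side and are not compared. Col1a2 stood at 2% of the heterozygous feeder level on the array labelled null, Col3a1 at 12.2% and Pdgfrb at 35%. Igfbp4, an IGF-binding protein gene in the same list, read 507 there and was lower on both arrays with feeders (237 and 219). The part of fibroblast RNA in the differences of the mesenchymal, contractile, imprinted and Hox genes was not tested. Markers of macrophages and blood, which feeder preparations can hold, had sums of 465 and 369 without feeders, and 1 of 7 counted members was past 2-fold higher (Cd34, 9.6 and 34.5) and 1 lower (Pecam1, 158 and 52.6), with a median of 0.06 over 17. Ptprc and Hba-a1 were under 17.1 on both arrays.

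Contractile genes and targets of YAP, the coactivator that responds to cell spreading, had 10 of 17 counted members past 2-fold higher and 0 lower, with a median of 1.06 over 19. Beside Anxa1, Ccn2, Acta2 and Tagln, the receptor gene Axl read 37.8 and 140.0, the muscle filament gene Des 7.0 and 31.6, and Lats2, a kinase that restrains YAP, 51.7 and 158 by an x_at probe set, without which its log2 difference was 0.46. Cald1, Tpm2 and Ccn1 completed the count, by 1.17, 1.11 and 1.06 on the log2 scale, and 3 other probe sets of Ccn1 were also past 2-fold. For 15 of the 19 members the heterozygous array without feeders was the lowest of the 4, a rank not counted over all genes. The summed signal of the list was 7870.4 on that array, 17651 on the other array of the pair, and 17026 and 17659 with feeders.

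TEAD proteins carry YAP to DNA at sites with the core CATTCC (or GGAATG on the other strand). In the 250 bases before the start of each gene, as RefSeq gives them on GRCm38.p6, 9 of 16 matched members of the contractile and YAP list held this core on either strand (56.2%), against 12.6% of 9155 counted genes with a promoter and 14.4% of 27025 genes in all. Among the holders, Tpm1, Amotl2, Ankrd1 and Lmod1 were not counted as past 2-fold higher, and Ankrd1 was lower (27.4 and 18.9). The motif and list were chosen with the differences in view, and a match is no sign of binding. The list was also made in part of known YAP targets, which itself favours a high share. The share therefore does not bear on the differences between the arrays, whose cause was not tested. The promoters of 3 members past 2-fold are shown because they hold the core, printed in capitals.
Ccn1 (chr3:145649986-145650235, minus strand): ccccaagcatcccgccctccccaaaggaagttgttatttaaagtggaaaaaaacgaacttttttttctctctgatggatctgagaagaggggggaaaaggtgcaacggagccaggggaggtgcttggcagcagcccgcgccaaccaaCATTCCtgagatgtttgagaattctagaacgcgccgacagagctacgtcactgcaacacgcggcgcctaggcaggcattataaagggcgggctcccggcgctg
Axl (chr7:25788734-25788983, minus strand): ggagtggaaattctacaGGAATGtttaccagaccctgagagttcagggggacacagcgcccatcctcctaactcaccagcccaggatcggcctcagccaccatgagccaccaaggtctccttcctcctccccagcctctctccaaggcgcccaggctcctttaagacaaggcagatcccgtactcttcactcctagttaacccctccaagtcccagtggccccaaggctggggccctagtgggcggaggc
Anxa1 (chr19:20390672-20390921, minus strand): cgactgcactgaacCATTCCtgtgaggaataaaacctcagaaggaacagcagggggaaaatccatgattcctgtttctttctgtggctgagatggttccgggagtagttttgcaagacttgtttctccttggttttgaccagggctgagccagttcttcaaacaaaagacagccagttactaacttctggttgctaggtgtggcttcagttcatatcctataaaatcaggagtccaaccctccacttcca
Each of these promoters held the core once. In the same windows, 4 of 22 matched fibroblast markers held the core (18.2%). Another motif tried was the CArG box, a run of A and T between CC and GG. It stood in 2 of 16 members of the contractile and YAP list (12.5%), against 1.41% of counted genes.

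All 20 measured genes of cholesterol synthesis and its regulation were lower on the array labelled null, 4 of them past 2-fold and 0 higher, with a median of -0.77. Cyp51, the lanosterol demethylase, read 262 and 107. The isomerase gene Idi1 read 747 and 322, and the sterol oxidase gene Msmo1 776 and 352. Hmgcs1, which makes HMG-CoA, was 2.09-fold lower, and all 5 of its probe sets were lower, with log2 differences from -0.57 to -1.06. With the mean of each gene's probe sets, Idi1 stayed past 2-fold (-1.19) and Cyp51 (-0.97), Hmgcs1 (-0.89) and Msmo1 (-0.55) did not. Lss, Dhcr7, Fdps and Fdft1, other enzymes of the pathway, were 1.99-fold to 1.74-fold lower. Over the alternatives tried, the log2 difference of Lss ranged from -1.05 to -0.54 and that of Fdft1 from -1.04 to -0.26. The smallest differences were those of Stard4 (-0.21) and Sc5d (-0.05). The heterozygous array without feeders was the highest of 4 for 16 of the 20 genes, and the array labelled null the lowest for 12. These ranks were not counted over all genes. Hmgcs1 read 1056 and 909 on feeders, close to the array labelled null without feeders. Fatty acid synthesis had a median of -0.18, with 1 of 15 counted members past 2-fold, the desaturase gene Scd1 (233 and 112), and Fads2 at 124 and 61.8. Elovl1 (0.86) and Me1 (0.68) were on the other side of 0.

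SREBP2, the factor that becomes active in sterol shortage, acts at a sterol element with the core CACCCCAC, often beside a CCAAT box bound by NF-Y. All 16 matched sterol genes held CCAAT on either strand in the 250 bases before their start, against 40.8% of counted genes and 37.5% of all genes. Only Hmgcs1 held CACCCCAC exactly (1 of 16, 6.25%, against 3.38% of counted genes). In the contractile and YAP list the share was higher, 2 of 16 (12.5%). The promoters of the 4 genes past 2-fold show both elements in capitals, in either orientation (CCAAT or ATTGG, CACCCCAC or GTGGGGTG). These motifs too were chosen with the values in view.
Hmgcs1 (chr13:119690101-119690350, plus strand): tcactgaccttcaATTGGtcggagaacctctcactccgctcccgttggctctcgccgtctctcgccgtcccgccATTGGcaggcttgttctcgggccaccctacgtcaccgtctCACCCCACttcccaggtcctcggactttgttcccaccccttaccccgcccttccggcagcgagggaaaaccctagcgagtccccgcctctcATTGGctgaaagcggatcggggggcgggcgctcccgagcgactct
Idi1 (chr13:8885356-8885605, plus strand): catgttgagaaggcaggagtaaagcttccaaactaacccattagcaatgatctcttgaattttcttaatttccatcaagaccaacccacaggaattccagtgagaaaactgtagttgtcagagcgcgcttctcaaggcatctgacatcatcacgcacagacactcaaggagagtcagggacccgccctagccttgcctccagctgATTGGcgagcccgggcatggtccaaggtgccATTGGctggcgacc
Cyp51 (chr5:4104698-4104947, minus strand): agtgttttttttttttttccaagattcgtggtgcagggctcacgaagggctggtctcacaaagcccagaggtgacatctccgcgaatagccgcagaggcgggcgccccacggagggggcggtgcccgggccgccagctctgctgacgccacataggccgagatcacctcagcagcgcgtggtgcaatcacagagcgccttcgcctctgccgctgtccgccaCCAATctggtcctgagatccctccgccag
Msmo1 (chr8:64733579-64733828, minus strand): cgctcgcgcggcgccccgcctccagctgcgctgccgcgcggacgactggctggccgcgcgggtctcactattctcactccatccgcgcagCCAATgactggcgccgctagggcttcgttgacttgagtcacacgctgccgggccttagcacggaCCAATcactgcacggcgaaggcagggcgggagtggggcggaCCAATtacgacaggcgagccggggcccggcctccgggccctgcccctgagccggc
Hmgcs1 held 4 matches to the elements, Msmo1 3, Idi1 2 and Cyp51 1. Among housekeeping genes, 5 of 11 held CCAAT, and among fatty acid synthesis genes 8 of 13 (61.5%).

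**Figure D3:**
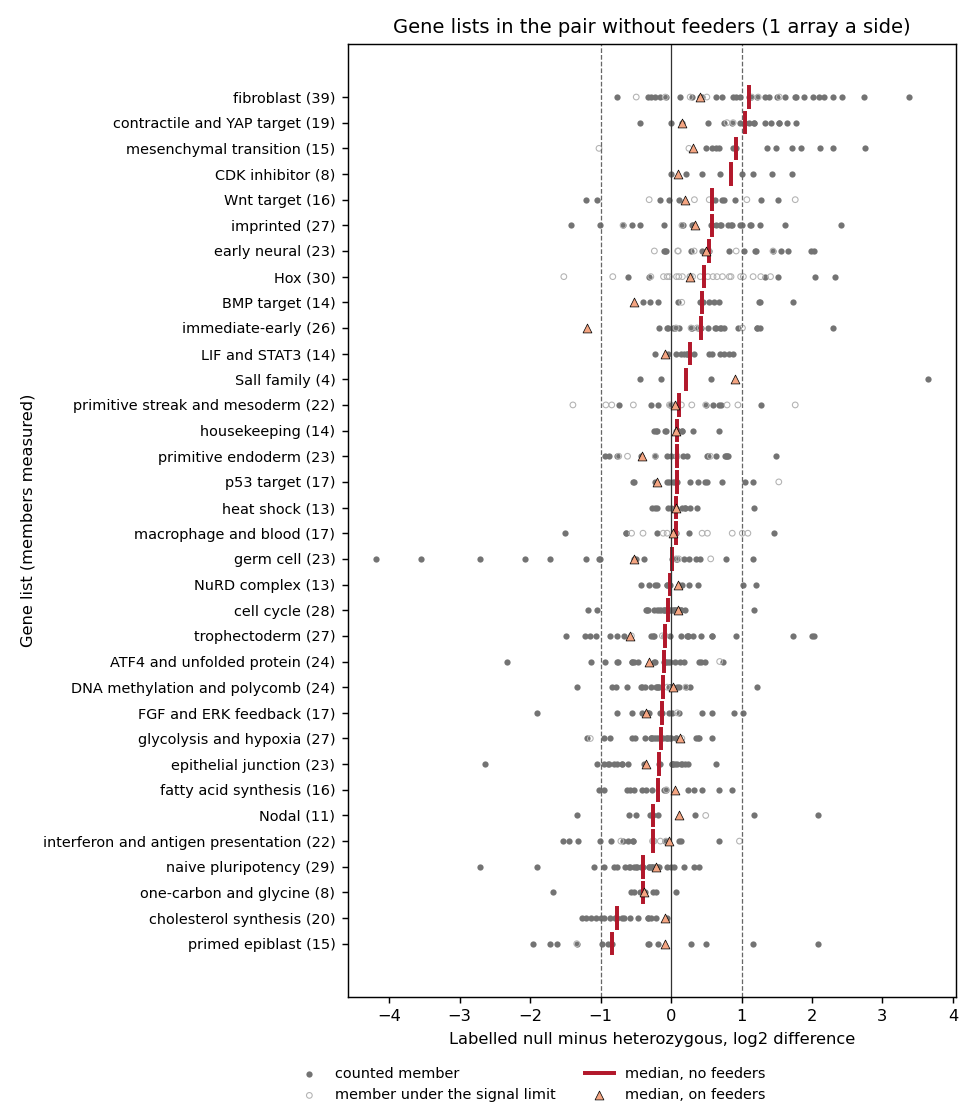
Labelled null minus heterozygous log2 difference without feeders (x axis) for every measured member of 34 gene lists (y axis, members in brackets); filled points are counted members, open ones lie under the signal limit. Red bars are list medians without feeders (1.10 for fibroblast, -0.77 for cholesterol synthesis), triangles the medians on feeders, and dashed lines mark 2-fold.

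Imprinted genes, which are expressed from 1 parental allele and several of which act in growth, had a median of 0.58, with 6 of 25 counted members past 2-fold higher and 2 lower. Peg3, a zinc finger gene, read 435 and 2346, and all 3 of its bright probe sets were higher, by 2.42 to 2.79. It was 641 at most on feeders, so the array labelled null without feeders held its highest signal. Dlk1, a Notch-related membrane protein gene, read 15.4 and 57.0 by an s_at probe set, and without such probe sets its log2 difference was 0.10. Plagl1, a zinc finger gene, read 215 and 524 by an x_at probe set, with a dim second probe set in the other direction (12.3 and 2.1). Igf2, Sgce and Cdkn1c completed the higher members, by 1.14, 1.13 and 1.00. Peg12 read 26.7 and 7.1, and the transporter gene Slc38a4 989 and 487. The inhibitors of cyclin-dependent kinases, a list of 8 without any lower member, had a median of 0.85 and 4 past 2-fold: Cdkn2a (9.9 and 42.9) and Cdkn2b (71.8 and 201) of the INK4 locus, Cdkn1a, the gene of p21 (199 and 452), and Cdkn1c (37.1 and 78.9). Cdkn1c stands in both lists.

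Hox genes, which pattern the body axis, were dim, and 24 of the 30 measured lay under 17.1 on both arrays. Their median was 0.47. Hoxd9 read 3.1 and 34.0, Hoxb6 1.0 and 18.5, Hoxd13 5.3 and 23.7, and Hoxd8 15.7 and 46.8. These 4 of the 6 counted members were past 2-fold, and all 4 were under 17.1 on the heterozygous array, so passing the limit already required a difference. Hoxd13, Hoxd9 and Hoxd8 are neighbours among the counted genes of their cluster.

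Signalling genes were read pathway by pathway. Targets and ligands of BMP, which with LIF holds ES cells undifferentiated, had a median of 0.44, with 3 of 13 past 2-fold higher: Id1, a target that blocks bHLH factors (302 and 722), the ligand gene Bmp2 (35.6 and 91.4) and Msx2. Nog, a BMP antagonist, read 10.3 and 19.2. Among 14 genes of LIF and STAT3 none was past 2-fold and the median was 0.28. Stat3 read 242 and 395, Jak2 53.3 and 102, Gbx2 127 and 228, and Junb 77.9 and 134. In the Nodal list, median -0.25, Lefty2, a feedback inhibitor, read 427 and 167, whereas Fst and the activin subunit gene Inhba (9.7 and 27.8) were past 2-fold higher, so 2 of 10 were higher and 1 lower. A second, dim probe set of Inhba read 8.2 and 0.8, in the other direction.

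In the FGF and ERK list, median -0.13, the ligand gene Fgf4 was past 2-fold lower and the phosphatase gene Dusp5 higher (117 and 242), 1 each of 16. Dusp4 read 275 and 515, and the receptor gene Fgfr2 132 and 76.0. Wnt targets and TCF factors had a median of 0.59, with 2 higher and 2 lower of 11. Lef1, a TCF factor that activates targets, read 88.2 and 261, and the target Sp5 19.3 and 53.5. Tcf7l1, the TCF factor that represses targets in ES cells, read 1026 and 443, and the cyclin gene Ccnd1 428 and 204. Immediate-early genes, which growth signals induce within minutes, had a median of 0.42, with 4 of 21 past 2-fold higher and 0 lower. These were Fosl2 (56.8 and 297), Ier5 (64.9 and 162), Fos (84.3 and 203) and Egr3 (11.8 and 33.6).

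Primitive endoderm genes showed little: 1 of 18 was past 2-fold, the protease gene Plat (27.2 and 85.1, and 0.47 on the log2 scale as the mean of its probe sets), and the median was 0.09. Cubn, an endocytic receptor gene, read 53.1 and 25.6, Dab2, an adaptor gene, 129 and 229, and the defining genes Gata4, Gata6 and Sox17 had differences of 0.06, 0.18 and -0.05. Of the streak and mesoderm list, 9 of 22 members were counted and 1, Foxf1, was past 2-fold higher (9.5 and 29.6), with a median of 0.11. Mixl1 read 21.0 and 10.7, Mesp2 11.2 and 21.3, and Evx1 9.3 and 17.7, all near the limit.

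Metabolic and stress lists came next. Genes of the ATF4 and unfolded protein responses had a median of -0.10, with 2 of 23 past 2-fold lower: the cationic amino acid transporter gene Slc7a3 (927 and 181) and the pseudokinase gene Trib3 (79.0 and 33.6). Slc7a5 read 271 and 139.9, and Xbp1 1512 and 885. Of 8 genes of one-carbon and glycine metabolism, median -0.40, Gldc, the glycine decarboxylase, was past 2-fold lower (762 and 236), and Mthfd2, Mthfd1l and Aldh1l2 were within 2-fold. Glycolysis and hypoxia genes had a median of -0.14 and 1 lower member of 25, the phosphofructokinase gene Pfkp (696 and 303). Interferon and antigen presentation genes had a median of -0.25, with 4 of 15 past 2-fold lower: Oas1a (133 and 43.1), the immunoproteasome genes Psmb9 (30.5 and 8.3) and Psmb8 (43.8 and 14.7), and Ifitm1.

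Proliferation and chromatin lists had medians near 0. Cell cycle genes had a median of -0.04 over 28, with Ccne1 (569.7 and 249, and -0.49 on the log2 scale without s_at and x_at probe sets) and Ccnd1 past 2-fold lower and Ccnd2 (51.5 and 122) higher. The p53 targets had a median of 0.08, with Cdkn1a and Plk2 (493 and 1027) higher of 16. Subunits of NuRD, the corepressor that SALL4 binds, had a median of -0.01, with the helicase gene Chd3 (20.5 and 53.5) and Mbd2 (95.1 and 198) past 2-fold higher of 13 and Hdac1 at 1592 and 1186. DNA methylation and polycomb genes had a median of -0.11, with Dnmt3a lower and Bmi1 (93.0 and 223) higher of 22, and Dnmt3b at 2446 and 1372. Heat shock genes had a median of 0.07, with Bag3 (55.9 and 132) higher of 13. None of 14 housekeeping genes was past 2-fold, their median was 0.09, and the largest difference among them was that of B2m (0.68).

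The pair on feeders read the same contrast on 2 other arrays, of which 1.68% of 11650 counted genes were at least 2-fold higher and 2.52% lower (4.21% in all). Of the 503 genes higher without feeders, 50 were at least 2-fold higher on feeders, 304 were higher by less, and 149 were lower or equal. Of the 391 lower genes, 104 were at least 2-fold lower on feeders, 211 were lower by less and 76 were not lower. The difference between the pairs has no test. Where the 4 arrays are set side by side, the heterozygous array without feeders was the lowest of 4 for 401 of the 503 higher genes, and the array labelled null without feeders was the highest for 272. For the 391 lower genes, the array labelled null without feeders was the lowest for 316 and the heterozygous one without feeders the highest for 221. These ranks read the arrays that chose the genes, which favours them. The same ranks were not counted over all genes. Of the higher genes, 48.1% were also at least 2-fold brighter on feeders in heterozygous cells, against 6.25% of all counted genes, a share that reads the same low heterozygous array. The same share within cells labelled null was 15.9% of the higher and 27.1% of the lower genes, against 4.8% of all counted genes. In heterozygous cells it was 2.81% of the lower genes. Each share reads an array that also chose the genes.

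**Figure D4:**
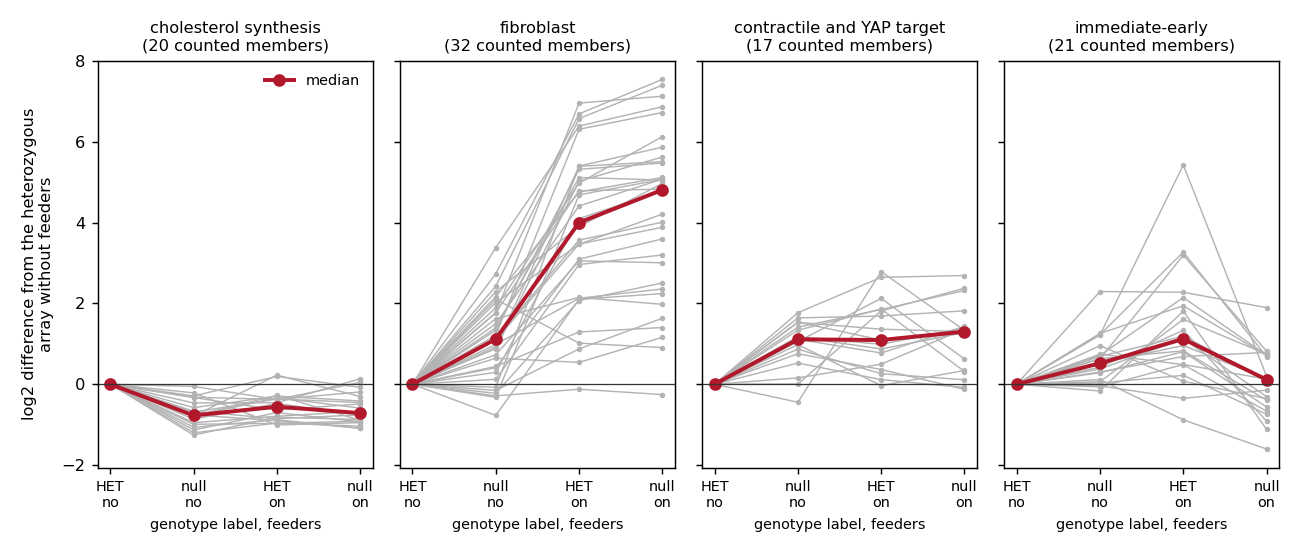
Log2 difference of each counted member from the heterozygous array without feeders (y axis) on 4 arrays (x axis, genotype label above feeder state) for 4 lists; grey lines are genes and red lines medians of 20, 32, 17 and 21 counted members. Sterol genes sit highest on the heterozygous array without feeders, and fibroblast genes far higher on both arrays with feeders.

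Some genes went opposite ways in the 2 pairs. Of 11304 counted genes, 15 were at least 2-fold different in opposite directions, 13 of them higher without feeders and lower on feeders in cells labelled null. Among all counted genes, 4.45% were at least 2-fold higher and 3.46% lower without feeders, and 1.68% higher and 2.52% lower on feeders. How many opposite genes 2 unrelated pairs with these shares would give was not worked out, so the 15 are given as values only. Ptgs2, a prostaglandin synthase gene induced by growth signals, read 46.4 and 230.3 here, against 744 and 180.5 on feeders. Ccn2 read 2214 and 755 on feeders, Phlda1 253 and 666 without and 446 and 134 on feeders, and F3, the tissue factor gene, 210.5 and 602 without and 489.8 and 199.8 on feeders. Edn1, the gene of endothelin-1, and C2cd4b were the remaining named ones. Immediate-early genes shared this in sign: 18 of 21 counted members had opposite signs in the 2 pairs, a count not made over all genes. Over all 26 measured members the median was 0.42 without and -1.19 on feeders. Egr3 stood at 701 on the heterozygous array with feeders and at 33.6 or less on the other 3. The BMP list had medians of 0.44 and -0.52 in the same order. Lefty2 was lower without feeders and read 186 and 444 on feeders.

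**Figure D5:**
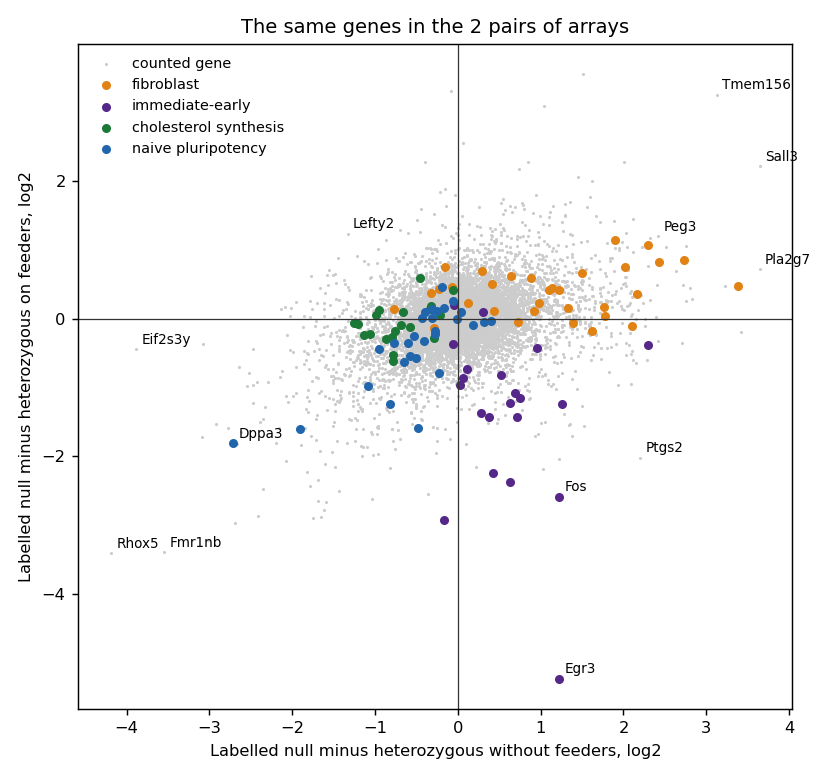
Labelled null minus heterozygous log2 difference without feeders (x axis) against that on feeders (y axis) for the 11304 genes counted without feeders (grey), with members of 4 lists in colour. Rhox5 and Fmr1nb are low and Tmem156 and Sall3 high in both, whereas Egr3, Fos and Ptgs2 are above 0 on the x axis and below 0 on the y axis.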

How the data were processed

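Per the submitters' processing notes the deposited intensities are MAS5 signals. The deposited table held no detection calls, and the version and any genome build are not given in the sources used here. The deposited intensity values are linear, and each array's 2% trimmed mean was 100, so no further scaling was applied. The number of arrays limits the precision. Leaving out 64 control probe sets, 34945 probe sets had 1 gene symbol and were used (932 had several and 9160 none), with symbols updated through gene IDs to RefSeq on GRCm38.p6. Differences were computed in Python with pandas 2.3.3 and numpy 2.4.6 and checked on simulated data.

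Members and the 34 lists were chosen with earlier results of these data known. List names without a probe set of 1 symbol were not used here. Genes were named by rule. Beside Sall4 and Pou5f1 these were the 15 highest and 15 lowest counted genes; the 8 highest and 8 lowest above 500 on both arrays; up to 4 members per list by size of difference (8 in 4 lists); and up to 6 genes at least 2-fold in opposite directions in the 2 pairs. Others were named to complete a count or as fixed cell type markers. Promoters came from RefSeq. Alternatives changed the offset, signal limit, fold, scaling, probe set rule and genes brighter on feeders.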

Additional observations from a re-analysis of the deposited data

Results flagged for a closer look

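Among genes named by rule, 11 differed at least 2-fold between genotypes in opposite directions without and on feeders, 1 array each. Ccn1, named to complete a count, did so too (log2 difference 1.06 without and -1.50 on feeders). These differences between pairs were not tested, and their count was not set against that of 2 unrelated pairs. The log2 difference without feeders, less that on feeders, was 6.45 for Egr3, 4.22 for Ptgs2, 3.81 for Fos, 3.21 for Dusp5, 3.08 for Phlda1, 2.89 for C2cd4b, 2.88 for Ccn2, 2.77 for F3, 2.66 for Edn1 and 2.49 for Ier5, each higher without feeders in cells labelled null. For Lefty2 it was -2.57. The heterozygous array on feeders held the highest signal of 4 for Egr3, Ptgs2, Fos, Ccn2 and Ier5 (854 for Fos and 744 for Ptgs2), and the array labelled null without feeders for Dusp5, Phlda1, C2cd4b, F3 and Edn1.

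Probe sets without a single gene name entered no comparison. Of 3274 that met the signal limit, 159 were at least 2-fold higher and 88 lower on the array labelled null without feeders.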

How the results depend on the processing

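No paired analysis was possible because each group was 1 array and the labels share no replicate numbers. With the offset at the median, 289 genes were higher and 180 lower without feeders, and 15 and 43 of these also on feeders. With the brighter array above 34.2, 247 were lower and 32 higher genes were shared. With no filter the counts were 931 and 804, with 81 higher genes shared and 71 in opposite directions. The mean of a gene's probe sets gave 26 shared higher genes and a fibroblast median of 0.57. Every probe set gave 898 higher, 77 shared, 29 opposite, and medians of -0.32 (primed epiblast) and 0.68 (fibroblast). Without genes brighter on feeders in heterozygous cells, 261 were higher (40.7% of those past 2-fold) and 7 were opposite. The fibroblast median turned to -0.15, the value of Sfrp1 alone, since most markers had been left out. Leaving out genes brighter in cells labelled null gave a fibroblast median of 0.64, the value of Twist1, again with few markers left. At 3-fold 157 were higher and 108 lower, 5 and 30 shared and 1 opposite. At 1.5-fold the counts were 1303, 1049, 209, 328 and 100. Over counted members alone, chosen after seeing the data, medians were 1.36 (mesenchymal transition), 1.43 (Hox) and -0.44 (germ cell). Of genes past 2-fold, those reversed were Inhba (-0.033, mean of probe sets), Acta2 (-1.09) and Plagl1 (-1.33, both without s_at and x_at probe sets). Sall1, within 2-fold, also crossed 0 (0.056, mean of probe sets). Of 125 named genes past 2-fold, 41 fell under it in some alternative. The causes were not tested. The signal limits of 34.2 and of none, and the folds, were not applied to list medians, which are over all measured members. Weak signals limit the folds.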

Other observations

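Counted genes past 2-fold sometimes stood beside each other. Runs of 3 or more consecutive counted genes past 2-fold in 1 direction numbered 11. How many runs genes in random order would give was not worked out. The longest held 5 serpin genes of chromosome 13, Serpinb1a, Serpinb9, Serpinb9b, Serpinb1b and Serpinb9g, all higher on the array labelled null. On the same chromosome AF067063, D13Ertd608e, Gm20767 and AF067061 were lower. AF067061 was read by an x_at probe set, which may cross-hybridise, so these neighbours may not be separate readings. Aldh3b1, Unc93b1, Aldh3b2 and Acy3 of chromosome 19 were lower, and Tes, Cav2 and Cav1 of chromosome 6, the last 2 encoding caveolins, were higher.

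Y-linked genes were few. Eif2s3y read 78.2 and 1.0 in the pair described here, and 91.8 and 66.4 with feeders, so the array labelled null without feeders stood alone. Uba1y read 24.5 and 7.5, and 22.6 and 7.3 on feeders. Uty read 18.0 and 13.0 by its brightest probe set and 14.3 and 16.5 by another, and on feeders both probe sets read higher on the array labelled null (20.1 and 31.7 by the former).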
